A study of Mus musculus and Rattus norvegicus with 79 samples.

Results

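The integrated stress response is the cell's common answer to amino acid shortage, unfolded protein, haem shortage and double-stranded RNA. Each of these activates a kinase that phosphorylates the translation factor eIF2, which lowers most protein synthesis and favours translation of the transcription factor ATF4. ATF4 then raises genes of amino acid supply and of redox defence, together with genes that end the response. In liver the pathway is known as a sensor of amino acid supply, and much of its control lies in translation, which mRNA counts do not measure.

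Described here are 10 genes of this pathway, of 24790 genes in the 2 deposited mouse liver tables. They were taken by name as ATF4 and well known ATF4-linked genes, by a rule that uses no measured value, though earlier results of these data were known when the list was made. Each is read from the RefSeq row with the highest summed count over both tables. They are the transcription factors Atf4, Ddit3 (CHOP), Atf3 and Atf5, the feedback and stress effectors Trib3, Ppp1r15a (GADD34), Chac1 and Sesn2, and the amino acid synthesis enzymes Asns and Psat1. The genes lie at chr15:80255184-80257545 (Atf4), chr10:127290793-127296291 (Ddit3), chr1:191170296-191183333 (Atf3), chr7:44812256-44816658 (Atf5), chr2:152337425-152344060 (Trib3), chr7:45522917-45526268 (Ppp1r15a), chr2:119351242-119354326 (Chac1), chr4:132492804-132510456 (Sesn2), chr6:7675165-7693209 (Asns) and chr19:15905123-15925059 (Psat1) of GRCm38.p6. All 10 passed the low-count filter in both experiments, in which 14744 and 15712 genes were tested.

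The first experiment holds 27 polyA libraries of C57BL/6 liver in 9 groups of 3: 1 unfed at ZT10, and a fed and an unfed one at each of ZT13, ZT14, ZT18 and ZT22. Zeitgeber time (ZT) counts hours from the start of the light phase, darkness began at ZT12, and food had been offered only in the dark phase. The second holds 36 ribosome-depleted libraries of Nr3c1fl/fl liver in 12 groups of 3, from mice that carried a floxed gene for the glucocorticoid receptor (GR) and were killed 10 days after injection of AAV-tbg-GFP (control) or AAV-tbg-CRE. Both viruses have an unfed group at each of ZT10 and ZT12 and a fed group at each later time (ZT13, ZT14, ZT18, ZT22), and GFP livers carry the floxed alleles and a virus too. The tbg promoter drives the virus in hepatocytes, so Nr3c1 stays intact in the other cells of the liver. The labels number the libraries without saying that each is a separate mouse, so p-values measure only the spread between these libraries.

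Total counts were 23.87 to 91.77 M per C57BL/6 library and 34.64 to 78.76 M per Nr3c1fl/fl library, summed over all transcript rows. A gene with several rows can enter these sums more than once. With 1 row per gene the libraries held 13601485 to 52703467 and 13872117 to 40384655 counts. Nr3c1 itself lay at 102 to 201 CPM (counts scaled to the size of each library) in the CRE libraries and at 147 to 323 CPM in the GFP libraries, without overlap at any of the 6 times, and was lower with CRE by -0.63 ± 0.06 on the log2 scale (SE, edgeR adjusted p = 1.85e-09). Hepatocyte markers summed to at least 45300 CPM in every library. Unfed ZT18 replicate 3 held 362 CPM of 8 exocrine pancreas markers, against 7.67 to 26.9 CPM in the other C57BL/6 libraries, and fed ZT14 replicate 1 held 105 CPM of bile duct markers, against at most 37.9 CPM. The row NR_046233, matched to no gene, took over 20% of the counts of all rows in 6 libraries of Nr3c1fl/fl liver at ZT10 and ZT12, 5 of them GFP. Unfed ZT14 replicates 1 and 2 were the closest pair of any group (chi-square over its degrees of freedom 3.52, against 10.55 for the next), yet differed beyond sampling noise and were kept as 2 libraries.

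The promoters of the members are shown first, since members that moved together can be compared in their letters. RefSeq promoters of GRCm38.p6, 250 bases before to 50 after the start, were found for all 10 members. The 2 motifs searched on both strands were TGATGNAA, the composite element bound by C/EBP and ATF factors, and TGACGTCA, the cyclic AMP element. The composite element was found in 4 of 10 members, and in 3.97% of 32851 promoters or 3.0% of 12444 tested genes. The cyclic AMP element was found in 1 of 10 members, and in 1.79% of all promoters or 3.23% of tested genes. In the 30-base windows that follow, read 5′ to 3′ on the gene's strand, the match stands in capitals:
Atf3: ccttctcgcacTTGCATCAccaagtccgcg
Chac1: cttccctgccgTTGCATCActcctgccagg
Asns: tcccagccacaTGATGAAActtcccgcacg
Trib3: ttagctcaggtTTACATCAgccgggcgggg
Ppp1r15a: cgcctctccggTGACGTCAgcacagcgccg
The windows lie at chr1:191183425-191183454 on the minus strand for Atf3, chr2:119351038-119351067 on the plus strand for Chac1, chr6:7693214-7693243 on the minus strand for Asns, chr2:152344028-152344057 on the minus strand for Trib3 and chr7:45526262-45526291 on the minus strand for Ppp1r15a. The match begins at position -110 in Atf3, -193 in Chac1, -23 in Asns and -12 in Ppp1r15a, counted back from the start, and at base 15 of the transcript in Trib3. Neither motif was found in Atf4, Ddit3, Sesn2, Atf5 or Psat1. A pair of genes lower in fed liver is printed with all 250 bases before the start, because they differ in this respect: Chac1 (chr2:119350992-119351241, plus strand) holds a match and Sesn2 (chr4:132510457-132510706, minus strand) holds none:
Chac1: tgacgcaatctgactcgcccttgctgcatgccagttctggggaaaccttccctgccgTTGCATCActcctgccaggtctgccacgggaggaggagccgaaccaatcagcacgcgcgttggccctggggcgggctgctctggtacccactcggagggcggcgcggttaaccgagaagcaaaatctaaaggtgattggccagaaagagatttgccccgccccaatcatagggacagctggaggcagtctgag
Sesn2: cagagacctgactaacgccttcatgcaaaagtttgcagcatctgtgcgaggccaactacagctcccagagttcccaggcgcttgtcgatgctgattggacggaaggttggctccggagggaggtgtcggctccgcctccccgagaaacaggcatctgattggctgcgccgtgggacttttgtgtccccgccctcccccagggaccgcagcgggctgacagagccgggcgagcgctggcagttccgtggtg
A match is a string of letters and shows no binding.

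Fed and unfed C57BL/6 livers of the same hour were compared to see how food during the night moved these mRNAs. Averaged over ZT13, ZT14, ZT18 and ZT22, feeding moved the members in opposite directions: 4 fell (Sesn2, Chac1, Trib3 and Ppp1r15a), 3 rose (Atf4, Ddit3 and Atf3), and 3 did not pass the test (Asns, Atf5 and Psat1). Among all 14744 genes tested, 17.5% were higher and 17.9% lower by the same rule (edgeR quasi-likelihood test, Benjamini-Hochberg adjusted p under 0.05). The median log2 change of the 10 members was -0.05, beside 0.008 for all genes. The members that fell are those grouped here as effectors, and those that rose are transcription factors. Atf5, also a transcription factor, leaned lower without passing (-0.14 ± 0.08). The list was made with earlier results of these data known.

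Sesn2 encodes sestrin 2, a leucine-binding inhibitor of mTORC1. At ZT13 unfed livers held 14.5, 15.7 and 11.2 CPM and fed livers 5.14, 5.4 and 6.2 CPM. The later unfed groups held 14.4 ± 1.48 CPM (ZT14), 15.3 ± 1.71 CPM (ZT18) and 14.7 ± 1.32 CPM (ZT22) (SD, n = 3), and the fed groups 5.38 ± 0.989, 5.0 ± 1.11 and 7.19 ± 1.1 CPM. Every fed library lay below every unfed library of its hour, at all 4 hours. On average Sesn2 fell by 1.35 ± 0.09 on the log2 scale (SE, adjusted p = 1.7e-11). It was also the only member past the threshold at ZT13, the earliest night hour, at -1.30 ± 0.17 (adjusted p = 0.00015), where 0.468% of genes were higher and 0.631% lower. Leaving out single libraries moved the average only between -1.40 and -1.30.

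Trib3 encodes a pseudokinase that is induced by ATF4 and CHOP and restrains them. Its fed values at ZT18 were 2.48, 3.03 and 2.64 CPM against 7.88, 6.42 and 9.46 CPM in unfed livers. Fed libraries were all lower at ZT13, ZT14 and ZT18, and at ZT22 unfed replicate 1, at 3.14 CPM, lay within the fed range of 1.94 to 4.31 CPM. The average change was -1.24 ± 0.15 (adjusted p = 7.66e-07). At ZT14 the change of -1.12 ± 0.32 had an adjusted p of 0.0346, which rose above the threshold without any 1 of 5 of the 6 libraries (up to 0.139), so the call at that hour rests on nearly all of them. At ZT22 the change of -1.49 ± 0.31 (adjusted p = 0.00109) was past the threshold no longer when only the 2 groups were fitted (0.0577).

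Chac1 encodes an enzyme that degrades glutathione. It lay at 0.473, 0.802 and 0.44 CPM in fed livers at ZT18, against 3.62, 1.43 and 2.67 CPM in unfed livers. Fed libraries were all lower at ZT13, ZT14 and ZT18 and overlapped with unfed libraries at ZT22. The average change was -1.59 ± 0.20 (adjusted p = 1.22e-06), with -1.99 ± 0.41 at ZT14 and -2.16 ± 0.43 at ZT18. These are low counts: Chac1 had 1623 counts over all 27 libraries.

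Ppp1r15a encodes the inducible subunit that directs a phosphatase to eIF2 and so ends the response. It stayed at 10.5 to 10.7 CPM in unfed livers at ZT18 and lay at 6.03, 7.21 and 6.08 CPM in fed livers. At ZT22 fed livers held 7.93, 6.02 and 5.13 CPM and unfed livers 13.1, 9.79 and 11.4 CPM, again without overlap. The change was -0.73 ± 0.17 at ZT18 (adjusted p = 0.00237) and -0.83 ± 0.17 at ZT22 (adjusted p = 0.000921), and at ZT13 and ZT14 the groups overlapped. Tulp2 overlaps this gene and the strand setting of the counting is not given, so reads of the pair cannot be told apart with certainty.

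**Figure D1:**
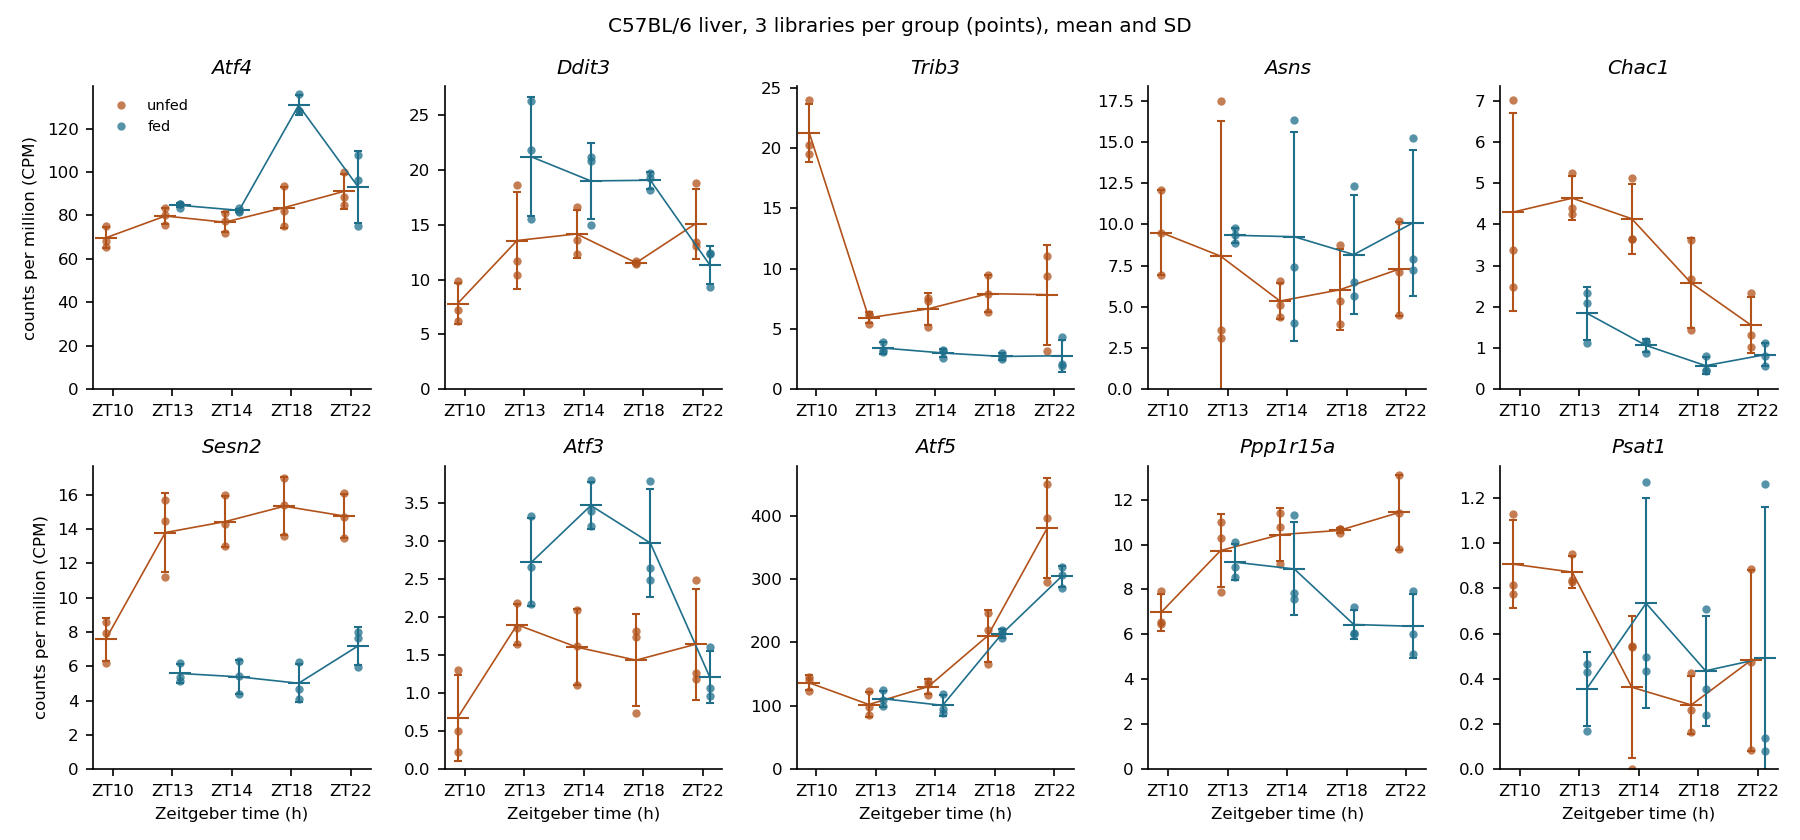
CPM of each member (y axis, from 0) in C57BL/6 liver against Zeitgeber time, as points per library with the mean and SD of 3; bars that would pass below 0 stop there. Sesn2 is lower in fed libraries at all 4 hours, Atf4 stands out at ZT18 in fed livers at 128 to 136 CPM, and Trib3 is highest at ZT10.

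Atf4 mRNA moved the other way. Fed livers held 136, 128 and 128 CPM at ZT18, against 93.7, 82.2 and 75 CPM in unfed livers, a rise of 0.65 ± 0.10 on the log2 scale (adjusted p = 3.51e-05). At ZT13 and ZT14 fed libraries were also above unfed libraries, by 0.09 ± 0.10 and 0.10 ± 0.10, which did not pass the test. At ZT22 the ranges overlapped, at 75.2 to 108 CPM fed and 84.6 to 100 CPM unfed. The average of 0.22 ± 0.05 (adjusted p = 0.00146) therefore holds mostly the hour ZT18.

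Ddit3 encodes CHOP, a transcription factor of prolonged stress. It rose at ZT18, from 11.4 to 11.7 CPM in unfed livers to 18.2 to 19.7 CPM in fed livers (0.73 ± 0.21, adjusted p = 0.0113). At ZT13 and ZT14 the groups overlapped, and changes of 0.64 ± 0.21 and 0.42 ± 0.21 did not pass (adjusted p = 0.146 and 0.274). At ZT22 its order turned, with 9.31 to 12.4 CPM in fed and 13.1 to 18.8 CPM in unfed livers, no overlap, and a change of -0.42 ± 0.21 that did not pass the test (adjusted p = 0.177). The average was 0.34 ± 0.10 (adjusted p = 0.012). Mbd6 and Mars1 overlap Ddit3, and Mars1 is also among the aminoacyl-tRNA synthetases read below. As the strand setting is not given, reads of these genes cannot be told apart with certainty in any comparison of Ddit3.

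Atf3, an early stress factor, lay at 3.2, 3.8 and 3.39 CPM in fed livers at ZT14 against 1.1, 1.62 and 2.09 CPM in unfed livers. Fed libraries were above all unfed libraries at ZT14 and ZT18 only. The average of 0.55 ± 0.20 had an adjusted p of 0.0361, and it passed no longer in 9 of 24 fits without 1 library (up to 0.0663). No single hour passed the test, with an adjusted p of 0.0522 at ZT18. Replicate blocking, upper-quartile scaling, DESeq2 and halved counts each brought that hour under the threshold, at 0.0239 to 0.048. At ZT14 the change of 1.10 ± 0.41 (adjusted p = 0.122) passed when only the 2 groups were fitted (0.0384).

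The change with feeding differed among the 4 hours for Atf4 (adjusted p = 0.0143) and Ddit3 (adjusted p = 0.0401), 2 of the 10 members, where 8.1% of all genes passed. Without unfed ZT18 replicate 3, the library with pancreatic transcripts, neither passed: Atf4 had an adjusted p of 0.0624 and Ddit3 of 0.0562. For Atf4 no other single library did this, whereas Ddit3 lost the call without any 1 of 13 of the 24 libraries (up to an adjusted p of 0.132). Ppp1r15a did not pass (adjusted p = 0.0827), but did with DESeq2 (0.0367) and without fed ZT22 replicate 1 (0.0357). For Sesn2, Trib3 and Chac1 the difference among hours did not pass (adjusted p = 0.335, 0.522 and 0.341).

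By hour, 3 members fell and none rose at ZT14, among 2.26% of genes higher and 3.38% lower. At ZT18, 2 rose and 4 fell, among 13.3% higher and 13.1% lower. At ZT22, 3 fell and none rose, among 10.5% higher and 9.77% lower. With edgeR, 5 members had an unadjusted p under 0.05 at ZT14 and 4 at ZT22, in either direction, beside 2896 and 4746 of 14744 genes. With DESeq2 it was 6 and 5 members, beside 2920 and 4768 genes. Some calls appeared only without 1 library: Ddit3 at ZT13 without unfed ZT13 replicate 1 (0.94, adjusted p = 0.0165) and Atf5 at ZT22 without unfed ZT22 replicate 1 (-0.48, adjusted p = 0.0276). Chac1 at ZT13 passed with DESeq2 only (-1.32, adjusted p = 0.0269).

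**Figure D2:**
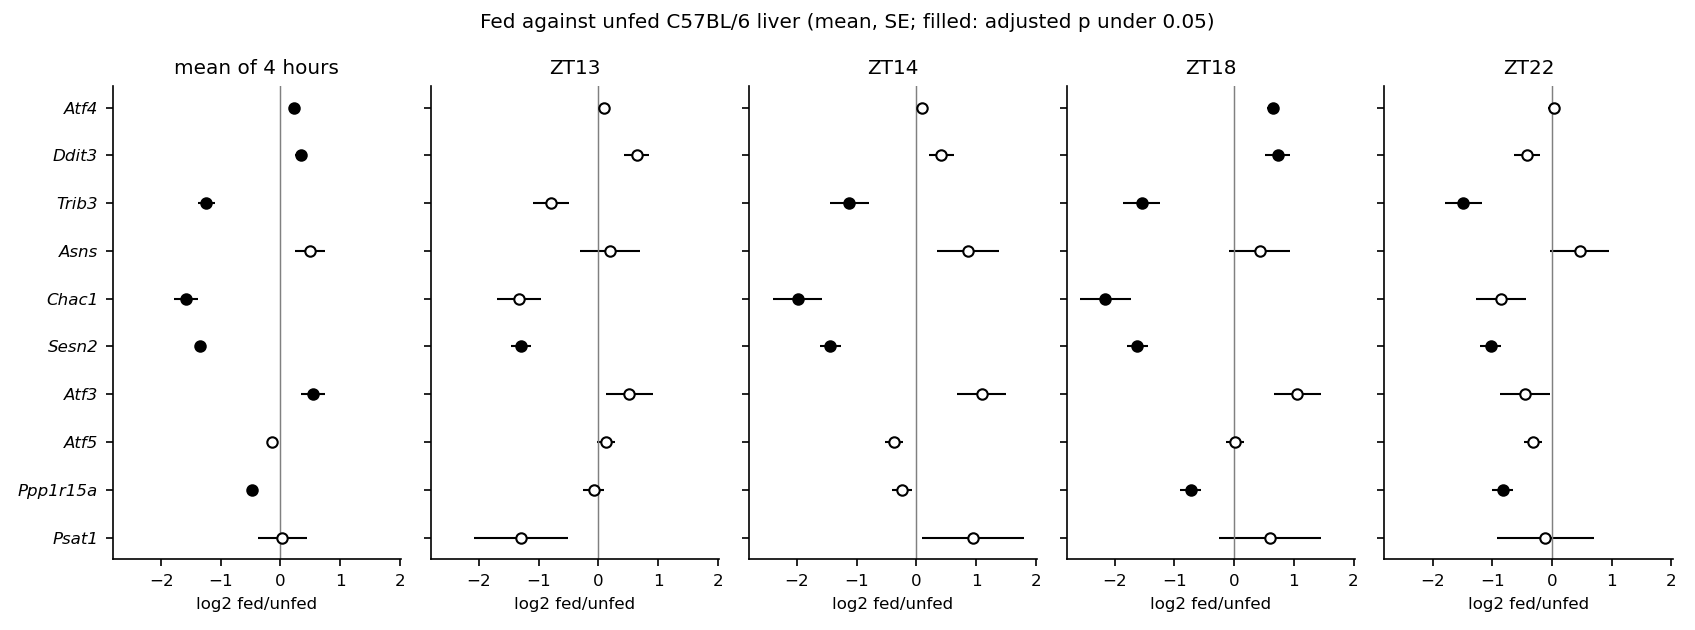
Log2 change between fed and unfed C57BL/6 liver (x axis) for each member, as the average of 4 hours and at each hour, with SE bars and filled points for an adjusted p under 0.05. Sesn2 is filled in all 5 panels, Trib3 in 4, and Atf4 and Ddit3 are filled above 0 in the average and at ZT18.

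Neither synthesis enzyme passed the test at any hour or on average. Asns, asparagine synthetase, ranged from 3.13 to 17.5 CPM with wide spread inside groups: unfed ZT13 held 3.13, 17.5 and 3.58 CPM and fed ZT14 held 4.0, 7.43 and 16.3 CPM. Its average of 0.49 ± 0.25 did not pass (adjusted p = 0.143), but without unfed ZT13 replicate 2 it did, at 0.82 (adjusted p = 0.00395, within a range of 0.00395 to 0.363 over all alternatives). The high libraries, unfed ZT13 replicate 2 and fed ZT14 replicate 3, held 15.0 and 12.2 CPM of exocrine pancreas markers with 7 and 6 of 8 markers at 0. Nearly all of both sums was Cela1, which was found in every library. The library with 362 CPM of these markers held 3.97 CPM of Asns. The part of pancreatic RNA in the Asns levels was not tested. Psat1, a serine synthesis enzyme, reached at most 1.27 CPM, and a change on average was not detectable at this depth (0.03 ± 0.41). At ZT13 all fed libraries, at 0.431, 0.466 and 0.167 CPM, lay below the unfed ones at 0.952, 0.827 and 0.836 CPM, with a change of -1.30 ± 0.79 that did not pass (adjusted p = 0.502). It had a count of 0 in unfed ZT14 replicate 1, which allows up to 0.183 CPM.

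Atf5, a factor of mitochondrial stress, did not pass for feeding (-0.14 ± 0.08, adjusted p = 0.165), and the ranges overlapped at all 4 hours. Its row is a non-coding RefSeq entry, NR_033136, and Nup62 and Il4i1b overlap it, so their reads cannot be told apart with certainty either.

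Beside these values, endothelial markers were lower in fed livers in 9 of 10 cases, with a median of -0.30 against 0.008 for all genes. Their summed level was 248 to 259 CPM fed and 345 to 370 CPM unfed at ZT18, and 297 to 319 CPM fed and 396 to 419 CPM unfed at ZT22. At ZT14 it was 286 to 293 CPM fed and 320 to 334 CPM unfed, and at ZT13 the sums overlapped. Also called were 3 of 8 stellate markers, 1 of 5 bile duct and 1 of 5 red blood cell markers (higher), 1 of 3 fat cell markers (lower), and 1 of 9 hepatocyte markers higher and 2 lower. In bulk tissue fewer cells of a type and less RNA per cell cannot be told apart. The part of these markers in the members' changes was not tested.

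The unfed livers alone were compared over ZT10, ZT13, ZT14, ZT18 and ZT22 to see which members moved without food. The level differed among the 5 times for 7 members, among 42.5% of all genes. Trib3 was the clearest at the start of the night: ZT10 held 20.2, 24.0 and 19.5 CPM and ZT13 held 6.12, 6.24 and 5.39 CPM, though no food was given in between (adjusted p over all times = 2.14e-05). Atf5 was highest at ZT22, at 295, 397 and 451 CPM, against 123, 140 and 146 CPM at ZT10 (adjusted p = 1.29e-09). Fed livers held 286 to 320 CPM at ZT22, so this high level was present with and without food.

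Sesn2 lay at 6.18 to 8.6 CPM at ZT10, below every unfed library of ZT13 to ZT22, which ran from 11.2 to 17 CPM (adjusted p = 0.000194). Fed livers at the later hours, at 4.1 to 7.99 CPM, were thus near the ZT10 level. Chac1 was at 2.49 to 7.02 CPM at ZT10 and at 1.03 to 2.33 CPM at ZT22 (adjusted p = 0.00814). Ddit3 (adjusted p = 0.00604), Ppp1r15a (0.0116) and Atf4 (0.0319) were each lowest at ZT10 by group mean. Ddit3 lost the call without ZT10 replicate 2 (0.0552), Ppp1r15a without ZT10 replicate 2 or 3 (0.0829 and 0.0778), and Atf4 without any 1 of 6 of the 15 libraries (up to 0.128). Atf3 did not pass (0.0675), but did with DESeq2 (0.0185) and without ZT10 replicate 3 (0.00504) or ZT18 replicate 2 (0.0436). These comparisons use the same unfed libraries as those of feeding, so they are not independent of them.

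CRE and GFP livers of the same time were compared to see whether loss of GR from hepatocytes moved these mRNAs. Averaged over 6 times, only Atf5 passed the test, being lower with CRE, among 7.92% of genes higher and 6.64% lower. The median of the members was -0.05, beside -0.004 for all genes. DESeq2 called 2 members (Atf5 and Chac1). With both tools 3 members had an unadjusted p under 0.05, beside 4090 of 15712 genes with edgeR and 4159 with DESeq2.

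Atf5 held 110, 129 and 117 CPM in GFP livers and 61.0, 69.2 and 94.4 CPM in CRE livers at ZT18. CRE libraries were all lower at ZT10, ZT14 and ZT18, and the groups overlapped at ZT12, ZT13 and ZT22. The average was -0.40 ± 0.07 (adjusted p = 0.000188), and it passed under every one of 45 alternatives (-0.44 to -0.30). Hepatocyte markers moved with it: 5 of 9 were lower with CRE, among them Apoa1 (-0.66 ± 0.06), Cps1 (-0.54 ± 0.06) and Hnf4a (-0.40 ± 0.05). The summed level of the 9 markers at ZT18 was 60400 to 69300 CPM with GFP and 49500 to 56600 CPM with CRE, and their part in the fall of Atf5 was not tested. Of the other lists, 1 of 5 red blood cell markers was higher with CRE and 1 of 3 fat cell markers lower. The summed level of the red blood cell markers was 101 to 118 CPM with CRE and 75.7 to 88.0 CPM with GFP at ZT12, 94.4 to 129 and 60.6 to 93.5 CPM at ZT18, and 112 to 125 and 66.6 to 92.1 CPM at ZT22, and it overlapped at ZT10, ZT13 and ZT14. This sum is mostly Alas2, with a median of 82.3 CPM per library. The globin Hbb-bs had a median of 5.29 CPM and the other markers 1.51 CPM or less, so the sum does not read red blood cells as such. No Kupffer, endothelial, stellate, bile duct or lymphoid marker passed with edgeR or DESeq2; 1 Kupffer and 1 bile duct marker had an unadjusted p under 0.05 with edgeR, and 1 Kupffer and 1 stellate marker with DESeq2.

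Chac1 was lower with CRE at ZT12 and ZT13 without overlap, at 1.7, 1.09 and 1.23 CPM against 3.5, 6.31 and 5.08 CPM and at 0.41, 0.602 and 0.451 CPM against 3.62, 1.6 and 1.12 CPM. The changes of -1.88 ± 0.65 and -2.11 ± 0.70 did not pass (adjusted p = 0.121 and 0.0805). The ZT12 change passed when only the 2 groups were fitted (0.0068) and with halved counts (0.0447), and the ZT13 change with DESeq2 (0.0315), halved counts (0.0412) and without GFP ZT13 replicate 3 (0.0373). The average of -0.78 ± 0.30 did not pass either (adjusted p = 0.0824). The average passed with DESeq2 (adjusted p = 0.0363) and without CRE ZT10 replicate 2 (-0.90, adjusted p = 0.0489) or CRE ZT14 replicate 3 (-1.06, adjusted p = 0.0116, range over alternatives 0.0116 to 0.17). Chac1 had a count of 0 in CRE ZT10 replicate 3, which allows up to 0.189 CPM.

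Ddit3 was the only member to pass at a single time. At ZT13 CRE livers held 18.5, 30.3 and 30.6 CPM and GFP livers 13.6, 16.4 and 18.6 CPM. The groups overlapped by 1 library, with a change of 0.71 ± 0.21 (adjusted p = 0.0413) among 1.89% of genes higher and 3.15% lower. The call was lost in 8 of 16 alternatives (up to an adjusted p of 0.259), among them 4 of 6 fits without 1 library of that time.

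At ZT10 (0.223% of genes higher, 0.471% lower), ZT12 (1.5% and 2.25%), ZT14 (0.586% and 0.987%), ZT18 (0.0382% and 0.0636%) and ZT22 (0.0891% and 0.0573%) no member passed with edgeR. The number with an unadjusted p under 0.05 was 1, 2, 1, 1 and 1 with edgeR and 1, 2, 1, 1 and 2 with DESeq2, which called 1 member, Atf5 at ZT18 (-0.66, adjusted p = 0.0467). Among all 15712 genes that number was 1751, 2203, 2026, 1281 and 1706 with edgeR and 1730, 2248, 2098, 1338 and 1763 with DESeq2. The difference with CRE changed with time for no member, among 0.687% of genes. With edgeR 2 members and with DESeq2 3 had an unadjusted p under 0.05, beside 1702 and 2013 of all genes, and DESeq2 called no member.

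**Figure D3:**
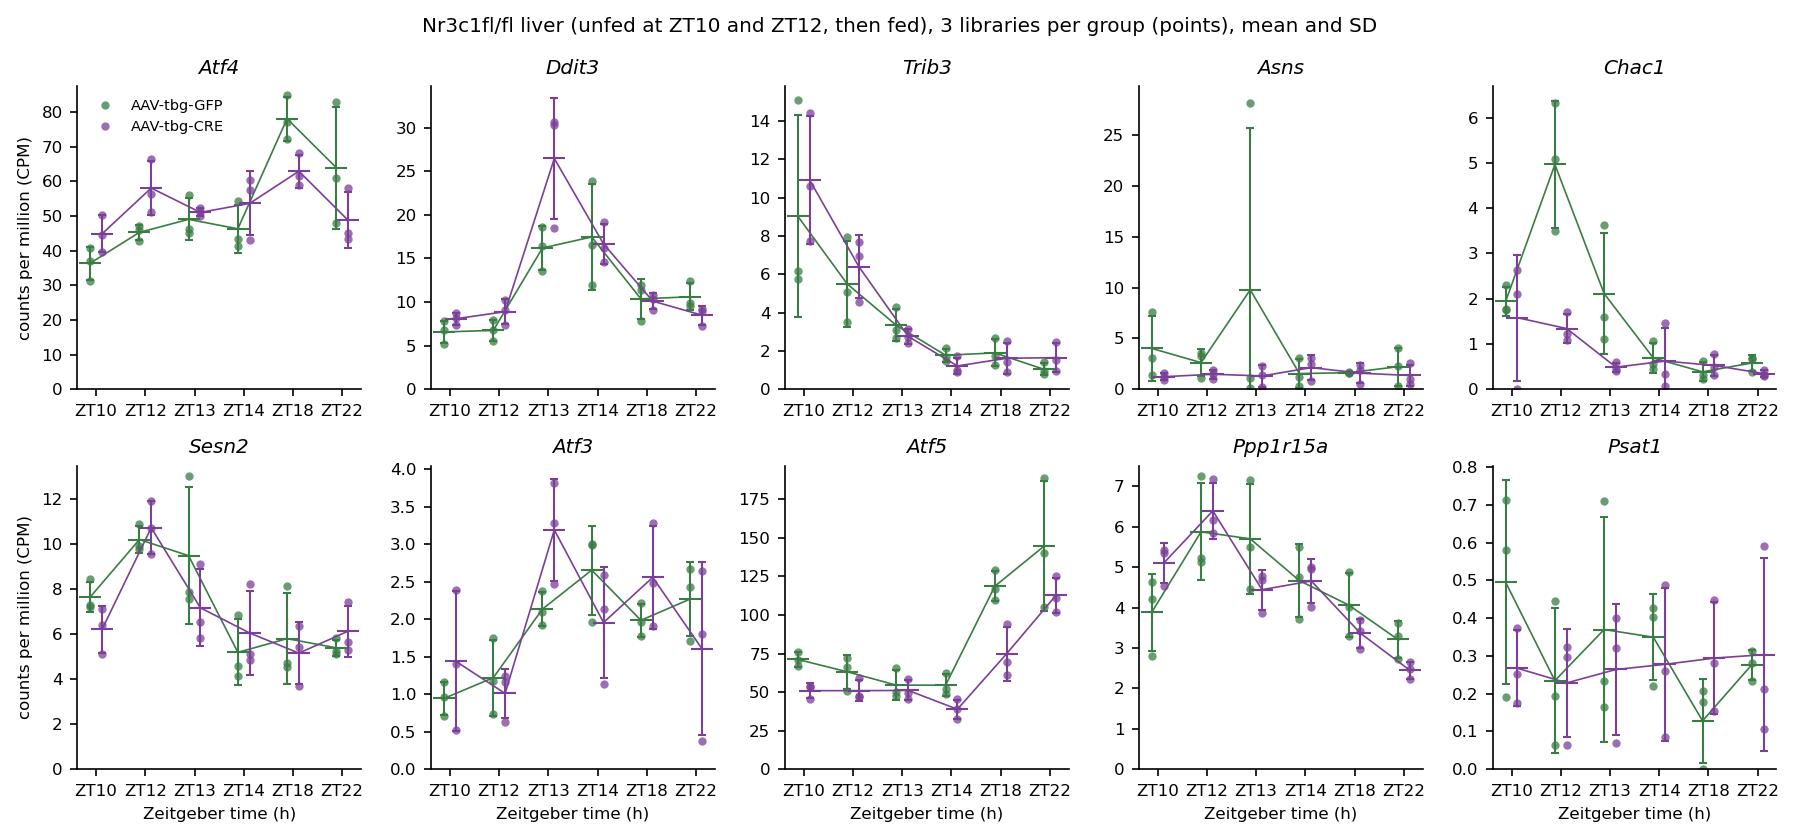
CPM of each member (y axis, from 0) in Nr3c1fl/fl liver against Zeitgeber time for GFP and CRE, as points per library with the mean and SD of 3; bars that would pass below 0 stop there. Ddit3 is high at ZT13 and ZT14 in both, Trib3 is highest at ZT10, and Asns has 1 GFP library at 28.1 CPM at ZT13.

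Asns was the most scattered member. GFP ZT13 held 28.1, 0.165 and 1.06 CPM, and replicate 1 alone set the change of -2.90 ± 1.04 at that time, which did not pass (adjusted p = 0.112) and was 1.06 without it. It passed without GFP ZT13 replicate 2 (-3.48, adjusted p = 0.0424) or 3 (-3.44, adjusted p = 0.0344), which leaves the high library and 1 other. That library held 3.51 CPM of exocrine pancreas markers, the lowest sum of all 36, of which 2.43 CPM was Cela1, found in every library. Its Prss2, Pnlip and Try4, at 0.421, 0.28 and 0.187 CPM, were above those of GFP ZT13 replicates 2 and 3. Cel and Ctrb1 lay between those replicates. The part of pancreatic RNA in its Asns was not tested. Trib3, Sesn2, Atf3 and Ppp1r15a were within 0.09 of 0 on average, with SE from 0.08 to 0.18, and Atf4 was at 0.04 ± 0.06. The Atf4 average joins times of opposite sign. CRE libraries were all higher at ZT12 (51.2 to 66.6 against 42.9 to 47.1 CPM). They were all lower at ZT18 (58.9 to 68.3 against 72.2 to 84.9 CPM). Changes of 0.30, 0.36, -0.31 and -0.39 at ZT10, ZT12, ZT18 and ZT22 did not pass (edgeR adjusted p from 0.269 to 0.624). Total-count scaling, which moved the median of all genes too, brought Atf4 past the threshold at ZT10 (0.0298) and ZT12 (0.00612).

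**Figure D4:**
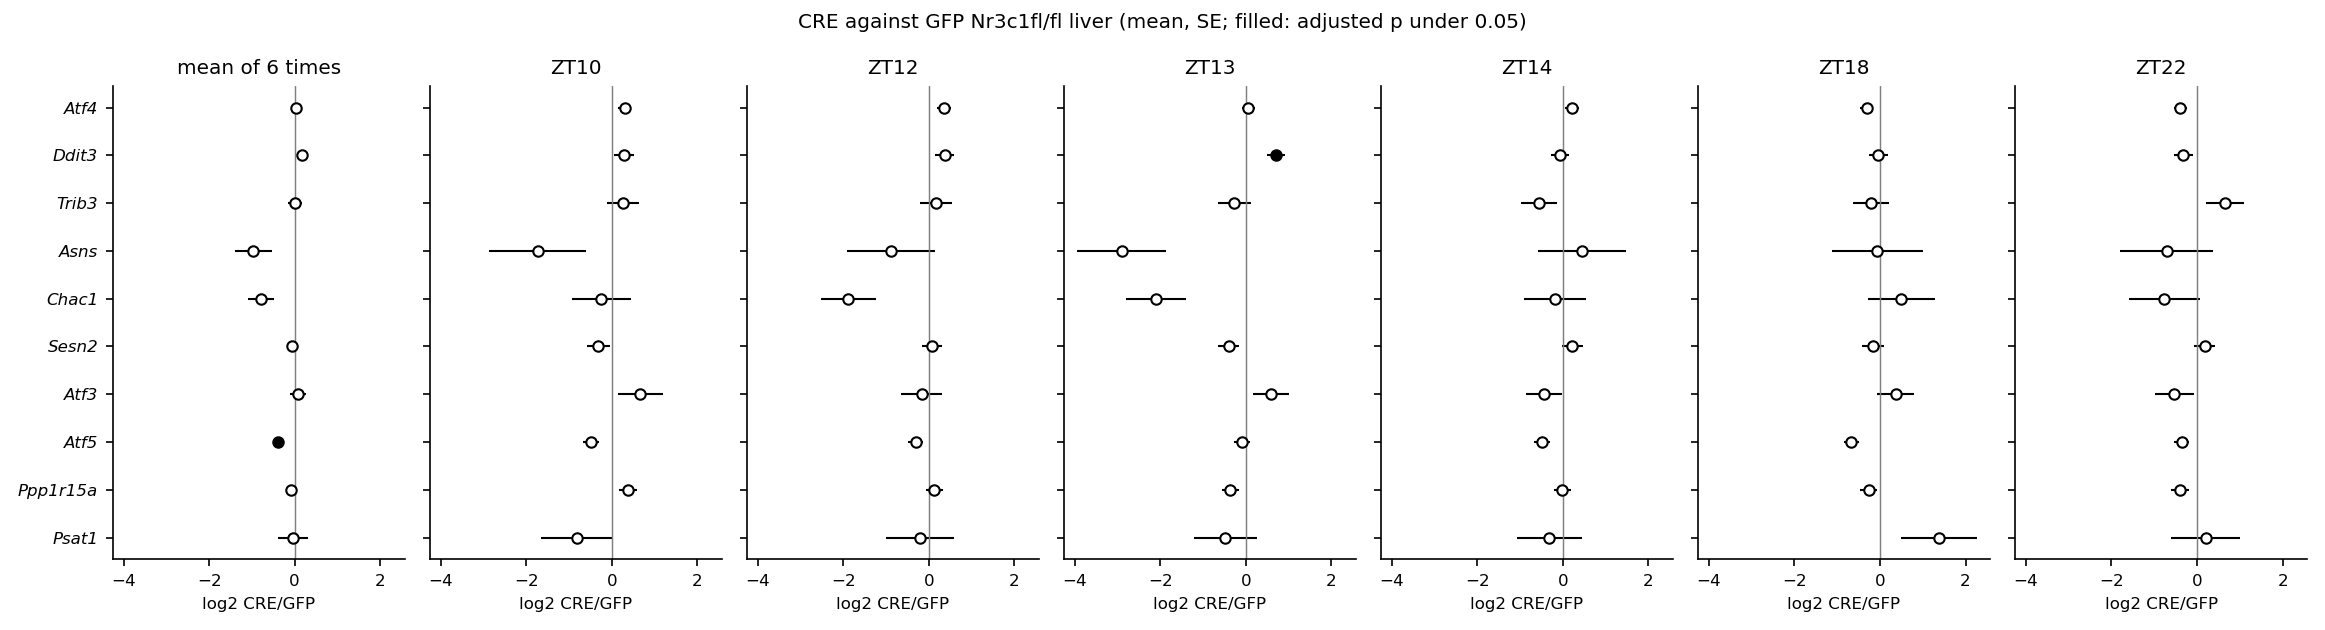
Log2 change between CRE and GFP liver (x axis) for each member, as the average of 6 times and at each time, with SE bars and filled points for an adjusted p under 0.05. Only Atf5 in the average and Ddit3 at ZT13 are filled, and Asns has the widest bars.

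Fed ZT13 livers were compared with unfed ZT12 livers of the same virus to follow the first meal, a step in which food and 1 h of time change together and cannot be told apart. In GFP livers Ddit3 rose from 6.74, 5.53 and 7.97 CPM to 13.6, 16.4 and 18.6 CPM (1.24 ± 0.22, adjusted p = 0.0022), among 1.91% of genes higher and 1.04% lower, and no other member passed. Without the 2 GFP ZT12 libraries above 20% in NR_046233, and 4 others, it was 1.03 (adjusted p = 0.234), with 1 library left at ZT12. In CRE livers Ddit3 rose from 9.14, 7.34 and 10.2 CPM to 18.5, 30.3 and 30.6 CPM (1.58 ± 0.21, adjusted p = 3.43e-05), among 5.77% higher and 3.61% lower.

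In CRE livers Atf3 rose from 0.63, 1.24 and 1.16 CPM to 3.82, 2.47 and 3.29 CPM (1.65 ± 0.44, adjusted p = 0.0151) and Trib3 fell from 7.69, 6.94 and 4.54 CPM to 2.7, 2.41 and 3.16 CPM (-1.21 ± 0.38, adjusted p = 0.0383). In both genes the groups did not overlap. Atf3 lost the call without CRE ZT12 replicate 1 or CRE ZT13 replicate 1, and Trib3 without any 1 of 5 of the 6 libraries (up to an adjusted p of 0.141). In GFP livers Atf3 and Trib3 were at 0.91 ± 0.46 and -0.76 ± 0.38, below the threshold.

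No difference in this step between CRE and GFP passed the test: 0 of 10 members did, and 0% of genes were higher and 0% lower with edgeR. Of the members, 0 had an unadjusted p under 0.05 with either tool, beside 634 of all genes with edgeR and 654 with DESeq2, which called 10 genes and no member. The differences were 0.34 ± 0.30 for Ddit3, 0.74 ± 0.63 for Atf3 and -0.45 ± 0.53 for Trib3 (SE). These comparisons share the ZT13 and ZT12 libraries with those of CRE and GFP.

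Other genes of the pathway were read from lists made with earlier results of these data known. Among all genes, 17.5% were higher and 17.9% lower with feeding on average. Averaged over the 4 hours, 13 of 14 ATF6 and XBP1 targets of the unfolded protein response rose with feeding and none fell, with a median of 0.74. Sdf2l1, a chaperone partner in the endoplasmic reticulum, rose by 1.71 ± 0.15, Manf by 1.23 ± 0.11 and Hsp90b1 by 0.63 ± 0.06. Of the 13 cytosolic aminoacyl-tRNA synthetases, 8 rose and none fell, with Wars1 at 0.51 ± 0.06, Aars1 at 0.39 ± 0.06 and Iars1 at 0.26 ± 0.04 (adjusted p at most 4.39e-05).

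Of 17 other ATF4-linked genes, 9 fell and 1 rose, with a median of -0.27. Igfbp1 (-2.81 ± 0.20), Fgf21 (-2.76 ± 0.30), a hormone of fasting, and Map1lc3b (-0.60 ± 0.06) had the smallest p. Igfbp1 and Fgf21 are also controlled by insulin and by PPAR alpha. Among 8 amino acid transporters, Slc38a2 (-0.70 ± 0.08) and Slc6a9 (-0.49 ± 0.07) fell and Slc1a4 rose (1.25 ± 0.18).

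Of the eIF2 kinases and their regulators 3 rose, with Eif2ak2 (PKR) at 0.44 ± 0.06 and Eif2ak3 (PERK) at 0.44 ± 0.08, and Eif2ak1 (HRI) fell by 0.29 ± 0.03. Of 10 genes of eIF2, eIF2B and a constitutive phosphatase subunit, 4 rose and none fell, with Eif2b3 at 0.41 ± 0.07, Eif2s1 at 0.20 ± 0.05 and Eif2b5 at 0.20 ± 0.05. Of 10 genes of serine, proline and one-carbon synthesis Psph rose (0.43 ± 0.10) and Mthfd1l fell (-0.42 ± 0.13), while Shmt2 was at 0.10 ± 0.04 (adjusted p = 0.0616).

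With CRE, 8 of 16 other ATF4-linked genes were lower and 2 higher, with a median of -0.22, among 6.64% of all genes lower and 7.92% higher. Herpud1 fell by 0.64 ± 0.08, Tsc22d3, a GR target known as GILZ, by 1.00 ± 0.12, and Map1lc3b by 0.30 ± 0.04. As the list holds a GR target, its counts do not read ATF4 alone. Among 8 transporters 4 were lower and none higher: Slc38a2 (-0.62 ± 0.08), Slc43a1 (-0.90 ± 0.12) and Slc6a9 (-0.45 ± 0.09) had the smallest p. Eif2b2 (-0.20 ± 0.06) and Eif2s2 (-0.15 ± 0.05) were lower, and of 14 targets of ATF6 and XBP1 only Pdia4 passed (0.24 ± 0.07). No eIF2 kinase or regulator, synthetase or gene of serine and one-carbon synthesis passed with edgeR, and DESeq2 called 0, 0 and 1. At an unadjusted p under 0.05 with edgeR there were 2, 5 and 3, beside 4090 of 15712 genes. The GR targets Fkbp5 (-1.77 ± 0.13), Lpin1 (-2.53 ± 0.10), Zbtb16 (-2.17 ± 0.13) and Per1 (-0.67 ± 0.10) were lower with CRE. With feeding Fkbp5 (-0.90 ± 0.13), Zbtb16 (-0.84 ± 0.21) and Per1 (-0.58 ± 0.17) were lower too, and Lpin1 did not pass (-0.48 ± 0.22). The food response genes Fasn (2.15 ± 0.10) and Srebf1 (1.78 ± 0.11) were higher and Pck1 (-1.40 ± 0.14) lower in fed C57BL/6 livers. With CRE Pck1 was lower (-0.79 ± 0.10) and Srebf1 higher (0.22 ± 0.08), and Fasn did not pass (0.25 ± 0.11).

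**Figure D5:**
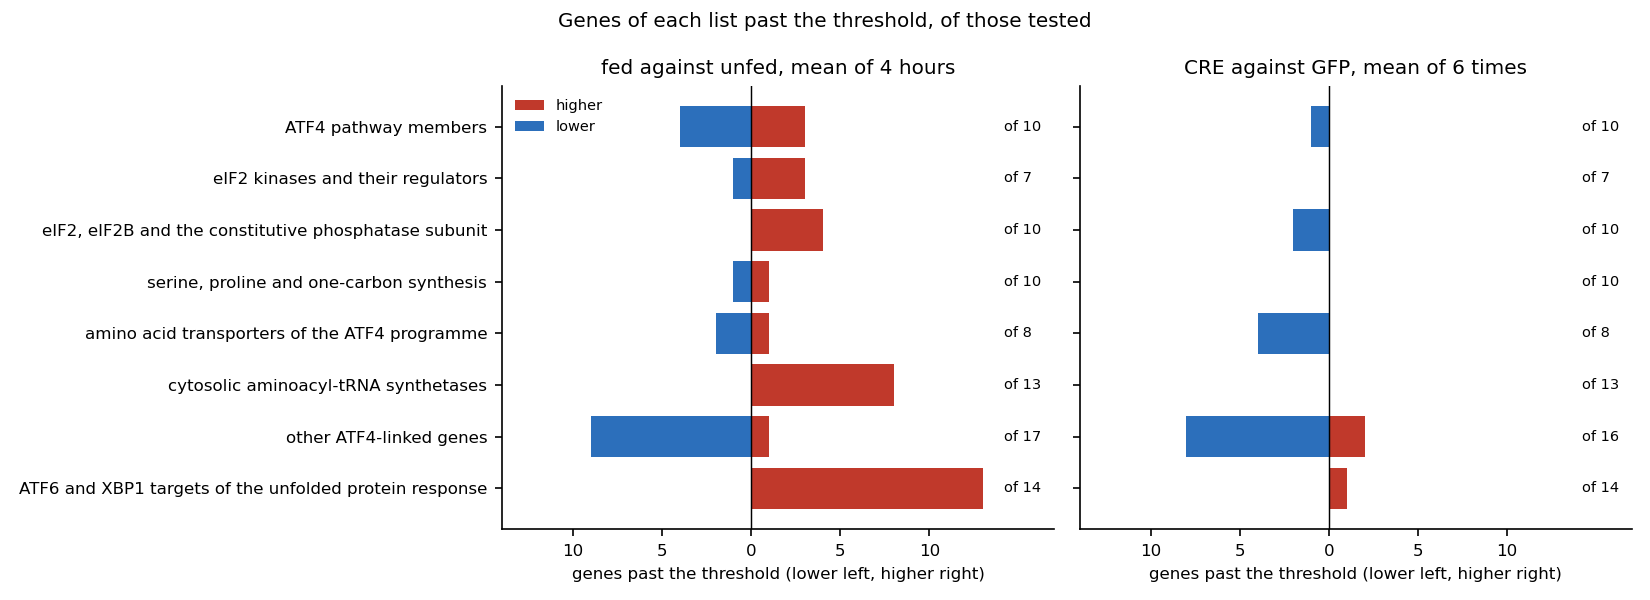
Number of genes past the threshold (x axis, lower to the left and higher to the right) in each list (y axis) for feeding and for CRE, with the number tested at the right. The ATF6 and XBP1 targets stand at 13 higher with feeding and 1 with CRE, and the members at 3 higher and 4 lower with feeding.

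Across the 9 group means of C57BL/6 liver, Ddit3 and Atf3 had the closest profiles of any pair of members (Pearson r = 0.96), and across the 12 of Nr3c1fl/fl liver also (0.82). Trib3 and Chac1 were at 0.75 and 0.60, and Sesn2 and Ppp1r15a at 0.73 and 0.66. Chac1 and Sesn2 were at 0.64 and 0.80. Opposite profiles were those of Atf4 and Chac1 (-0.81 and -0.49), Trib3 and Atf3 (-0.79 and -0.67) and Atf4 and Trib3 (-0.65 and -0.57). Ddit3 and Trib3 (-0.76 and -0.46) were opposite too, and Asns and Sesn2 in C57BL/6 liver only (-0.79 and 0.42). In Nr3c1fl/fl liver the most opposite were Atf4 and Psat1 (-0.73) and Atf5 and Ppp1r15a (-0.72). These pairs were at -0.27 and -0.10 in C57BL/6 liver. The points share their libraries, hour and feeding, and the values are descriptions. Outside the list, the genes nearest to Trib3 among 9983 genes of at least 5 CPM were Flcn (0.984), Fam160b1 (0.984), Erf (0.958) and Npc1 (0.956) in C57BL/6 liver. In Nr3c1fl/fl liver, among 10430 genes, they were Flcn (0.976), Nudt4 (0.973), Gm17359 (0.968) and Cdadc1 (0.964). Nearest to Atf4 were Saysd1 (0.948), Dop1a (0.942), Creld1 (0.941) and Ttc41 (0.938) in C57BL/6 liver and Tmem161a (0.914), Mogs (0.897), Vps72 (0.896) and Unc119b (0.893) in Nr3c1fl/fl liver.

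GR was immunoprecipitated from unfed ZT10 liver chromatin, and the authors deposited 3 lists of peaks on mm10 that give positions and no heights. The library codes in the labels of 1 GR sample and its input sample are crossed, so the lists are used as their names describe them, and which of these libraries is which was not checked. Of 5772 peaks found in both replicates, those within 25 kb of the gene interval touched 5 of the 10 members, and 28.6% of 15818 tested genes. They lie near Trib3 (chr2:152360476-152360684 and chr2:152314164-152314372), Chac1 (chr2:119355620-119355828), Sesn2 (chr4:132474764-132474972 and chr4:132483010-132483218) and Psat1 (chr19:15904849-15905057), and inside Atf3 (chr1:191170630-191170838). The Chac1 peak is 1.29 kb past the end of the gene and the nearer Trib3 peak is 16.4 kb upstream of its start. Chac1 and Trib3 are lower in fed liver, and neither passed the test with CRE.

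Against input 7 members had a peak (62.0% of genes) and against GR knockout chromatin, labelled LGRKO, 8 (70.3%). A peak of the latter list, chr4:132510375-132510583, spans the annotated start of Sesn2 and part of the promoter printed earlier. Another, chr7:44816432-44816640, ends 18 bases inside the start of Atf5, the member that fell with CRE. A further peak of that list, chr1:191183719-191183927, lies 386 bases upstream of Atf3. A peak called against input, chr7:45526402-45526596, lies 134 bases upstream of Ppp1r15a. Sesn2, Atf3 and Ppp1r15a did not pass the test with CRE. None of these peaks is among those found in both replicates. Atf4 and Ppp1r15a had peaks only in the lists called against input or knockout chromatin, and Ddit3 and Asns had none in any list within 25 kb.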

How the data were processed

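The members and gene lists were chosen by name, with earlier results of these data known. The deposited tables hold counts per RefSeq transcript, per the labels; STAR, HOMER, DESeq2 and mm10 are named without roles or versions per the submitters' processing notes. The authors' peak lists hold positions only, read as counting from 0. Most counts from 1 to 10 are even (75.7% to 85.1% per library), and no source used here gives the cause. Whether counting used strand is not given either, and without transcript lengths levels are not compared between genes.

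Of 40458 rows 40219 matched the gene table of GRCm38.p6, giving 24790 genes. Unmatched rows held 0.308% to 2.24% of counts in C57BL/6 and 2.43% to 28.6% in Nr3c1fl/fl libraries and stayed out of library sizes. 4 members have several rows, and Atf5 rests on NR_033136.

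The tests used edgeR 4.0.16 under R 4.3.3: filterByExpr, TMM factors and the quasi-likelihood F-test, with 1 fit for each experiment and a Benjamini-Hochberg adjusted p under 0.05. CPM divide a count by its library's total over tested genes after TMM scaling, and SE is the size of the log2 change over the square root of F. Groups came from the labels. Alternatives were DESeq2 1.42.0, other scaling, no filter, a replicate block, the mean over a gene's rows, left-out libraries, fits of 2 groups, and the NR_046233 share as a covariate or limit; halving the counts was added after seeing the data. The fits were tested on simulated data for the feeding and CRE averages only, with the same spread for all genes and no change with time. That test does not cover single hours, differences among hours or genes with a spread of their own. An upper limit for a count of 0 is 3 counts and covers counting error only.

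Named genes are the 10 members, up to 3 genes of each pathway list with the smallest p in each average, fixed check genes, and the 4 genes with the highest r with Trib3 and with Atf4. Marker genes are named where a result moves with them.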

Additional observations from a re-analysis of the deposited data

Results flagged for a closer look

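For Atf4 the change with feeding differed among ZT13, ZT14, ZT18 and ZT22 (edgeR adjusted p = 0.0143). Fed and unfed livers stood apart by 0.65 ± 0.10 on the log2 scale at ZT18 and by at most 0.10 ± 0.10 at the other hours. For Ddit3 it also differed (adjusted p = 0.0401): fed libraries lay above all unfed libraries at ZT18 and below all of them at ZT22. At ZT13 and ZT14 they overlapped, with changes of 0.64 ± 0.21 and 0.42 ± 0.21. Each call was lost without unfed ZT18 replicate 3, and that of Ddit3 without any 1 of 12 other libraries as well.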

How the results depend on the processing

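Of the values of single members under the alternatives, 3618 kept their direction and side of the threshold, 60 lost and 30 gained the call, and 122 changed sign with no call on either side; no called value changed sign. DESeq2 called 2 members for feeding at ZT13 (against 1), 2 for the CRE average (against 1), 2 at ZT13 with CRE (against 1) and 1 at ZT18 (against 0). Total-count scaling gave 1 at ZT10 and 1 at ZT12 with CRE (each against 0), 0 at ZT13 (against 1), 1 for the change of the CRE difference with time (against 0) and 2 for the first meal in GFP livers (against 1). Halved counts gave 1 member at ZT12 and 2 at ZT13 with CRE. No filter on low counts gave 0 at ZT13 with CRE. Fitting only the 2 groups gave 1 at ZT12 and 0 at ZT13 with CRE and 0 for the GFP first meal. Without libraries above 20% in NR_046233 there were 0 at ZT13 with CRE and 0 for the GFP first meal. Without the 2 libraries with transcripts of other tissues, 0 members differed in feeding by hour (against 2). A 5 kb window left 3 members with a GR peak (against 5).

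Leaving out 1 library at a time gave 6 to 7 members for feeding on average, 1 to 2 at ZT13, 2 to 3 at ZT14, 6 at ZT18, 3 to 4 at ZT22, 0 to 2 for feeding by hour and 4 to 8 for the unfed time course. It gave 1 to 2 for the CRE average, 0 to 3 for CRE at ZT13, 0 for CRE at the other times and by time, 1 for the GFP first meal, 1 to 3 for the CRE first meal and 0 for their difference.

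Over all alternatives the counts over all genes ran from 4719 to 5411 for feeding on average (5215), 5216 to 6957 for the unfed time course (6260), 40 to 434 for feeding at ZT13 (162), 389 to 1318 at ZT14 (831), 2530 to 4168 at ZT18 (3897), 1752 to 3212 at ZT22 (2984) and 853 to 1931 by hour (1194). For CRE they ran from 1372 to 2873 on average (2289), 43 to 1117 at ZT10 (109), 105 to 1963 at ZT12 (589), 55 to 1343 at ZT13 (792), 74 to 428 at ZT14 (247), 1 to 83 at ZT18 (16), 0 to 106 at ZT22 (23) and 57 to 407 by time (108). The first meal ran from 0 to 2922 in GFP livers (464), 478 to 1886 in CRE livers (1474) and 0 to 10 for their difference (0). Total-count scaling moved the median of all genes to 0.33 for CRE at ZT10, 0.34 at ZT12, 0.32 for the GFP first meal, -0.33 for the first meal difference and 0.10 for the CRE average, all on the log2 scale. It also moved the share of higher calls from 54.4% to 84.9% for the CRE average, 32.1% to 96.1% at ZT10, 40.1% to 92.1% at ZT12, 37.5% to 22.7% at ZT13, 37.2% to 9.57% at ZT14, 60.9% to 44.4% at ZT22, 64.7% to 98.7% for the GFP and 61.5% to 71.8% for the CRE first meal. For feeding it moved from 42.6% to 60.4% at ZT13 and 40.1% to 53.0% at ZT14. The cause of these differences was not tested.

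Same-numbered libraries deviated together in 0 of 12 pairings of C57BL/6 groups and 2 of 18 of Nr3c1fl/fl groups (correlations over 0.1), so no pairing by number was seen. Differently numbered libraries were not compared, so a pairing is not excluded. With a replicate block 7 members were called for feeding on average and 7 at ZT18 (against 6), and the counts of the other comparisons were as without it. Low counts limit Psat1, Atf3 and Chac1, whose median counts per C57BL/6 library were 12, 44 and 54.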
